A study of Homo sapiens with 12 samples.

Results

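T47D-Y breast cancer cells with K388R PR-B (KR cells) were compared with T47D-Y cells with wild-type PR-B (WT cells), both given the synthetic progestin R5020 for 6 h. The comparison used 4 of the 12 arrays of the series, 2 per line, and was made across 20046 genes, with 1 probe standing for a gene, the one with the highest mean over the 12 arrays. T47D-Y is a subline of the T47D luminal breast cancer line that has lost the progesterone receptor (PR). The receptors were expressed from the pIRES-neo3 vector, which carries a neomycin resistance gene, in lines expanded from single-cell clones under G418. Cells were serum starved for a day before treatment. The other 8 arrays were KR and WT cells given vehicle (ethanol) for 6 h, and PR-null cells, which carry the empty vector, given R5020 or vehicle, with 2 arrays per group. The arrays of 1 line do not separate the effect of the mutation from other differences between clones, and the study describes the 2 arrays of a group as biological duplicates. P-values measure the spread between duplicate arrays, pooled over the 6 groups and moderated towards a spread typical of all probes.

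PR is a ligand-activated transcription factor of the nuclear receptor family, and PR-B is its longer isoform. On binding a progestin it forms dimers that bind a palindromic DNA element, which is shared with the glucocorticoid and androgen receptors, and recruit coactivators or corepressors. SUMO is a small protein that is joined to lysines of other proteins by a conjugating enzyme and taken off by SENP proteases. On many transcription factors it dampens activity, and the K388R change removes the lysine of PR-B that carries it. The question addressed by the comparison was which genes differ between cells with the 2 receptors once ligand is present.

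Replicate arrays correlated at r = 0.995 in every group, and the KR and WT arrays with R5020 at 0.99 to 0.9903. After the quantile normalization of the deposited values, 46.4% to 46.5% of probes lay above the background limit of 6.06 (log2 intensity) on each array, a limit set at the 95th percentile of 437 probes for olfactory receptor genes. All 10 luminal markers, among them the keratins KRT8 and KRT18, were above the limit on the 4 arrays. Their summed level was 15.22 to 15.28 on KR arrays and 15.09 to 15.18 on WT arrays (log2). Of the measured markers of other cell types, 1 of 6 basal or mesenchymal, 0 of 6 leukocyte, 0 of 4 endothelial and 1 of 6 fibroblast genes were above the limit on all 4 arrays. The 12 housekeeping genes measured differed by -0.28 to 0.13 (log2), and none was called.

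PGR, which encodes the receptor itself, was higher in KR cells. Its level was 9.78 and 9.59 on the KR arrays and 7.66 and 7.51 on the WT arrays with R5020 (log2 intensity). The groups did not overlap, and the difference was 2.10 on the log2 scale (SE 0.111, adjusted p = 1.42e-18), or 4.29-fold. With vehicle, PGR read 8.86 and 8.96 in KR cells and 8.49 and 8.62 in WT cells, a difference of 0.36 that did not pass the test (adjusted p = 0.0983). In PR-null cells all 4 arrays lay at 5.38 to 5.46, under the background limit. The 2 lines thus moved apart after ligand. Set against its own vehicle arrays, PGR with R5020 was 0.78 higher in KR cells (adjusted p = 8.97e-07) and 0.97 lower in WT cells (log2 difference -0.97, adjusted p = 4.46e-09). Both lines express this transcript from the vector, as T47D-Y cells have lost PR. The receptor transcript was therefore unequal on the arrays compared below, and its part in the other differences was not tested. Receptor protein was not measured on the arrays, so the transcript levels do not give the amount of receptor. By western blot under these conditions, the study describes the KR protein as lost slightly faster with ligand than the WT protein.

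Genes were called at a log2 difference over 0.6 (1.52-fold) with an adjusted p under 0.01. By this rule 241 genes (1.2% of those tested) were higher and 272 genes (1.36%) were lower in KR than in WT cells with R5020. Differences ran between -1.92 and 4.77, and their median over all genes was close to 0. The higher genes had a median difference of 0.83 and the lower genes of -0.74. Large differences lay mostly on the higher side, where 66 genes passed a log2 difference of 1 and 6 passed 2, against 39 and 0 lower genes. In 512 of the 513 called genes the brighter line was above background on both arrays, and in 35 the dimmer line was not above it on either array.

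**Figure D1:**
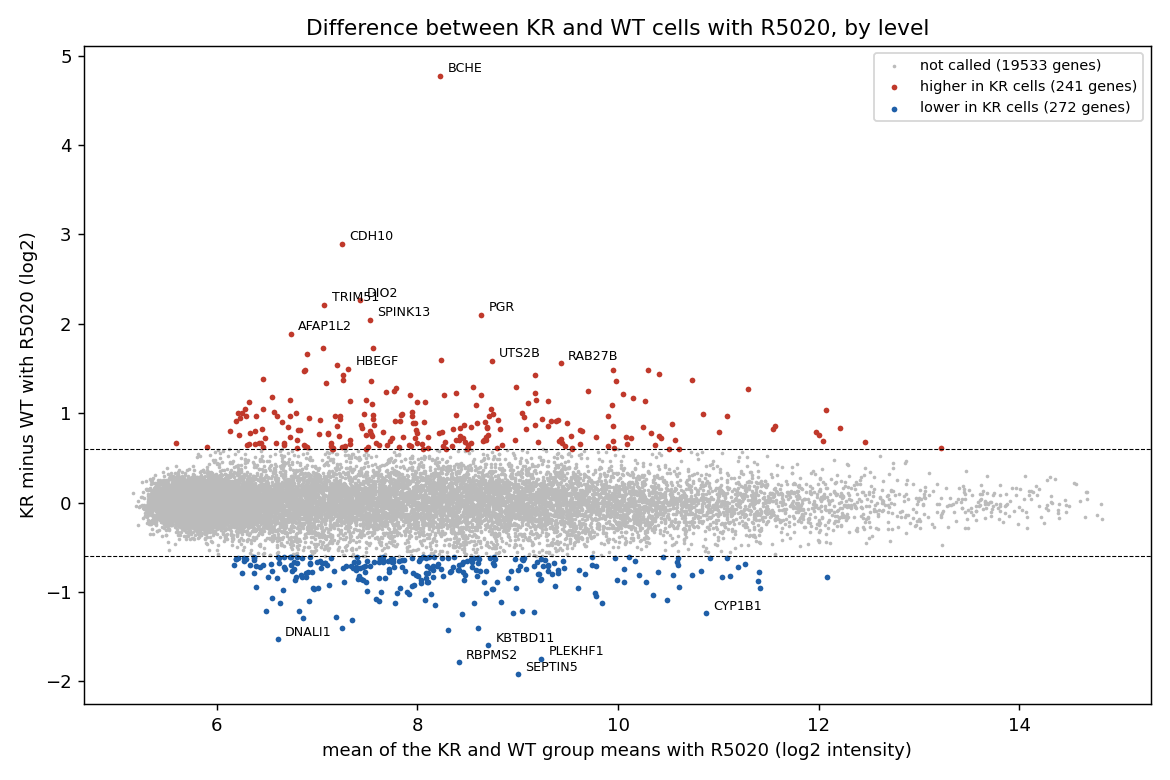
Each point is 1 of 20046 genes, with the mean of the KR and WT group means on the x axis (log2 intensity) and the KR minus WT difference with R5020 on the y axis (log2). Dashed lines mark differences of 0.6 and -0.6. BCHE stands alone at 4.77, and the 241 higher and 272 lower genes are spread over the range of levels.

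The genes highest in KR cells included 2 enzymes of hormone metabolism. DIO2, the deiodinase that turns thyroxine into active thyroid hormone, read 8.49 and 8.63 in KR cells and 6.33 and 6.25 in WT cells with R5020 (log2 difference 2.27, SE 0.114, adjusted p = 2.74e-19). With vehicle it read 6.79 and 6.78 in KR cells and 6.90 and 7.02 in WT cells, so the levels of the lines were close without ligand. A second DIO2 probe was not above background on 2 or more arrays. AKR1C3, an aldo-keto reductase that reduces steroids and prostaglandins, read 7.74 and 7.72 in KR cells and 6.09 and 6.03 in WT cells (difference 1.67, SE 0.109, adjusted p = 1.8e-15). It was also higher in KR cells with vehicle, by 0.62 (adjusted p = 2.41e-04), and its probe may not separate it from the closely related AKR1C genes.

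Several signalling genes belonged to the same group. HBEGF, a ligand of the epidermal growth factor receptor, had levels of 8.08 and 8.03 in KR cells and 6.51 and 6.61 in WT cells (difference 1.49, SE 0.114, adjusted p = 2.52e-13). RGS2, which speeds the shut-off of Gq-coupled signalling, had 7.91 and 8.03 in KR cells and 6.48 and 6.37 in WT cells (difference 1.54, SE 0.115, adjusted p = 1.25e-13). UTS2B, a urotensin-like peptide hormone, had 9.38 and 9.68 in KR cells and 8.21 and 7.68 in WT cells (difference 1.58, SE 0.132, adjusted p = 2.96e-12). All 3 were at 5.34 to 6.25 on every vehicle array of both lines, beside which the liganded KR arrays stood high for each. In WT cells UTS2B was also raised by R5020 (2.45), whereas RGS2 and HBEGF were each 0.42 above vehicle, which did not pass the test (adjusted p = 0.011 for both). PHLDA1, a pleckstrin-like domain protein, showed another pattern. It read 9.17 and 8.89 in KR cells and 7.37 and 7.52 in WT cells with R5020 (difference 1.59, SE 0.113, adjusted p = 3.18e-14), against 8.33 and 8.37 in KR cells and 8.51 and 8.38 in WT cells with vehicle. With ligand the KR level lay above both vehicle groups and the WT level below them. A second, dimmer probe of PHLDA1 differed by 0.19 and was not called (adjusted p = 0.46), and a second UTS2B probe was not above background on 2 or more arrays.

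MSX2, a homeobox repressor downstream of BMP signalling, read 8.45 and 8.40 in KR cells and 6.62 and 6.77 in WT cells (difference 1.73, SE 0.113, adjusted p = 1.8e-15). The vehicle arrays of both lines lay at 6.81 to 7.11, and among these 8 arrays only the liganded KR arrays stood above that range. MAP1A, a microtubule-associated protein, read 7.86 and 8.0 in KR cells and 6.30 and 6.09 in WT cells (difference 1.74, SE 0.114, adjusted p = 2.24e-15). AFAP1L2, an adaptor of Src-family signalling, read 7.82 and 7.54 in KR cells and 5.72 and 5.88 in WT cells, where it was not above background. It was therefore at least 3.08-fold higher in KR cells (fitted difference 1.89, adjusted p = 4.43e-15), and a second probe differed by 1.39 in the same direction.

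SPINK13, a Kazal-type protease inhibitor, read 8.57 and 8.52 in KR cells and 6.49 and 6.51 in WT cells (difference 2.04, SE 0.117, adjusted p = 2.08e-17), with 5.60 to 6.01 on the vehicle arrays of both lines. TRIM51, one of a family of near-identical TRIM genes that 1 probe may not tell apart, read 8.24 and 8.12 in KR cells and 5.73 and 6.20 in WT cells (difference 2.22, SE 0.125, adjusted p = 1.39e-17). Its liganded KR arrays stood apart from the other 10, none of which was higher than 6.20. RAB27B, a small GTPase of secretory vesicle release, read 10.22 and 10.20 in KR cells and 8.67 and 8.63 in WT cells (difference 1.56, SE 0.115, adjusted p = 9.54e-14). Here it was WT cells with R5020 that stood apart, since the vehicle arrays read 10.17 and 10.02 in KR cells and 9.73 and 9.83 in WT cells. Of 2 dimmer RAB27B probes, 1 was not above background and the other differed by 0.38 without passing the test (adjusted p = 0.033).

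**Figure D2:**
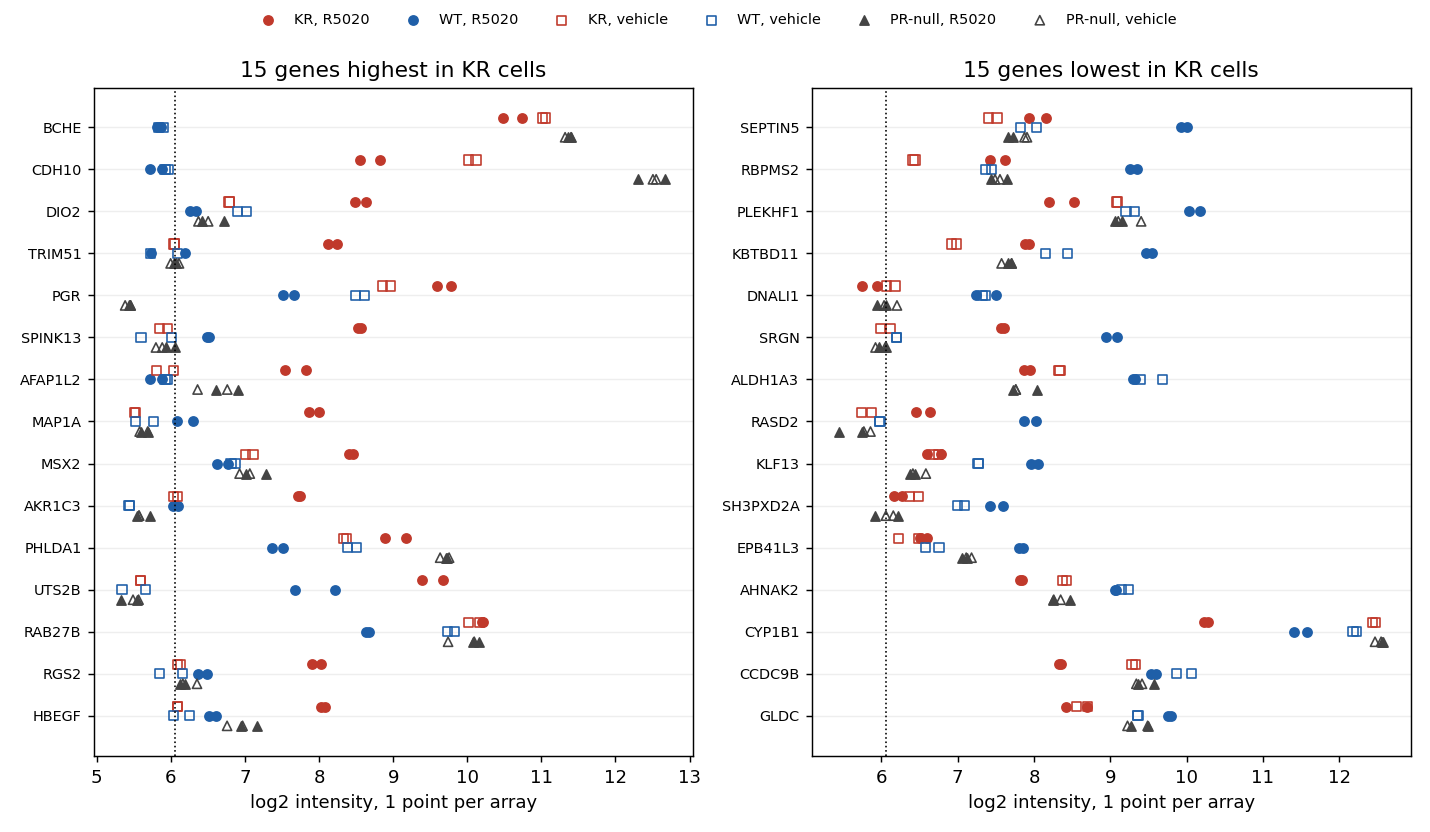
Log2 intensity of the 15 genes highest and the 15 genes lowest in KR relative to WT cells with R5020, 1 point per array for all 12 arrays, with the background limit of 6.06 as a dotted line. For DIO2, TRIM51 and MSX2 only the 2 liganded KR points stand clear of the rest, whereas for BCHE and CDH10 only the WT points lie at background.

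BCHE and CDH10 had the greatest differences of all, and for BCHE the WT line was the exception. BCHE, which encodes butyrylcholinesterase, read 10.48 and 10.74 in KR cells and 5.86 and 5.82 in WT cells with R5020, at least 23.5-fold higher in KR cells (fitted difference 4.77, adjusted p = 2.16e-32). With vehicle it read 11.06 and 11.02 in KR cells and 5.90 and 5.83 in WT cells, and PR-null cells lay at 11.32 to 11.40. CDH10, a type II cadherin, read 8.83 and 8.55 in KR cells and 5.72 and 5.88 in WT cells with R5020, at least 6.20-fold higher in KR cells (fitted difference 2.89, adjusted p = 1.42e-22). Its vehicle levels were 10.02 and 10.12 in KR cells and 5.96 and 5.92 in WT cells, and PR-null cells lay at 12.31 to 12.67. For CDH10 the KR cells thus stood between WT and PR-null cells. R5020 lowered CDH10 in KR cells (log2 difference -1.38 from vehicle, adjusted p = 1.76e-12). WT cells were at background for both genes with and without ligand, so these differences were present before R5020. Whether a clonal change or the receptor accounts for them was not tested. A second BCHE probe gave 3.98.

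The genes lowest in KR cells included several that R5020 raised in WT cells. SEPTIN5, a GTP-binding septin of vesicle exocytosis, read 8.15 and 7.93 in KR cells and 10 and 9.93 in WT cells with R5020 (difference -1.92, SE 0.113, adjusted p = 4.56e-17), against 7.40 and 7.51 in KR cells and 8.04 and 7.82 in WT cells with vehicle. SRGN, the proteoglycan serglycin of secretory granules, read 7.57 and 7.61 in KR cells and 9.08 and 8.95 in WT cells (difference -1.43, SE 0.11, adjusted p = 2.92e-13), with 5.98 to 6.20 on the vehicle arrays of both lines. A second SRGN probe gave -1.30. RASD2, a Ras-like GTPase also called Rhes, read 6.64 and 6.45 in KR cells and 8.03 and 7.87 in WT cells (difference -1.40, SE 0.116, adjusted p = 2.34e-12), and 5.73 to 5.98 with vehicle. In all 3 the WT arrays with R5020 were the highest of the 12. Against vehicle, SRGN and RASD2 were raised in both lines, while SEPTIN5 was raised in WT cells (2.03) and stood 0.58 above vehicle in KR cells, short of the threshold. The other 2 SEPTIN5 probes were not above background on 2 or more arrays and were not called.

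PLEKHF1, an endosomal and lysosomal adaptor, lay on either side of its vehicle level. It read 8.19 and 8.53 in KR cells and 10.18 and 10.03 in WT cells with R5020 (difference -1.74, SE 0.119, adjusted p = 7.16e-15), and 9.08 to 9.31 on the vehicle arrays of both lines. CYP1B1, a cytochrome P450 that hydroxylates estradiol, read 10.23 and 10.27 in KR cells and 11.58 and 11.40 in WT cells with R5020 (difference -1.24, SE 0.109, adjusted p = 1.27e-11), against 12.44 and 12.48 in KR cells and 12.23 and 12.18 in WT cells with vehicle. CYP1B1 was thus lower with ligand in both lines and further down in KR cells. EPB41L3, a membrane skeleton protein, read 6.60 and 6.50 in KR cells and 7.85 and 7.80 in WT cells (difference -1.28, SE 0.113, adjusted p = 1.46e-11).

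Other genes of this group were lower in KR cells without ligand too. ALDH1A3, which makes retinoic acid from retinal, read 7.87 and 7.94 in KR cells and 9.32 and 9.30 in WT cells with R5020 (difference -1.40, SE 0.116, adjusted p = 2.42e-12) and differed by -1.20 with vehicle. KBTBD11, a kelch-repeat protein, differed by -1.60 with R5020 (SE 0.112, adjusted p = 1.98e-14) and by -1.35 with vehicle. DNALI1, an axonemal dynein light chain, read 5.74 and 5.94 in KR cells, not above background, and 7.24 and 7.51 in WT cells, so it was at least 2.49-fold lower in KR cells (fitted difference -1.53, adjusted p = 1.75e-13), and it differed by -1.22 with vehicle. PR-null cells were at 5.94 to 6.20 for DNALI1 and at 7.73 to 8.04 for ALDH1A3, in both cases nearer to KR than to WT cells. RBPMS2, an RNA-binding protein of smooth muscle, differed by -1.79 with R5020 (adjusted p = 4.53e-16) and by -0.98 with vehicle (adjusted p = 4.72e-08), and it was raised by R5020 in both lines. The remaining genes of the 15 lowest were KLF13 (-1.31), SH3PXD2A (-1.29), AHNAK2 (-1.24), CCDC9B (-1.23) and GLDC (-1.22), with vehicle differences of -0.55, -0.62, -0.79, -0.66 and -0.73 in the same order. AHNAK2 rests on its brightest probe, as a second gave -0.56 without passing the threshold and the other 2 were not above background on 2 or more arrays.

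The vehicle arrays of the 2 lines are separate from the R5020 arrays and show which differences existed before ligand. With vehicle, 75 genes (0.374%) were higher and 96 genes (0.479%) were lower in KR than in WT cells. Of the genes higher with R5020, 37 were also higher with vehicle, which is 15.4% of the R5020 list and 49.3% of the vehicle list. Of the genes lower with R5020, 51 were also lower with vehicle, 18.8% of the R5020 list and 53.1% of the vehicle list. The vehicle difference was above 0 for 73.4% of the higher genes and below 0 for 86% of the lower genes, beside 49.8% of all genes above 0. Yet it was small for most of them, within 0.3 of 0 for 149 of the 241 higher and 161 of the 272 lower genes, with medians of 0.15 and -0.23. Across the 13660 genes above background on at least 2 arrays, the differences with R5020 and with vehicle correlated at r = 0.464 (Spearman 0.377). These are values across genes, which share the 2 clones and are not independent replicates.

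Called genes turned round by ligand were few. RND3 was lower in KR cells with vehicle (7.28 and 7.31, against 7.83 and 8.02 in WT cells) and higher in KR cells with R5020 (7.93 and 7.99, against 7.07 and 6.87 in WT cells). ARID5B and PLXNA1 did likewise, with 1.22 and 0.71 with R5020 and -0.70 and -0.61 with vehicle. They are named because no other gene was called in opposite directions, and they were picked after their values were seen. No gene called lower with R5020 was called higher with vehicle.

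**Figure D3:**
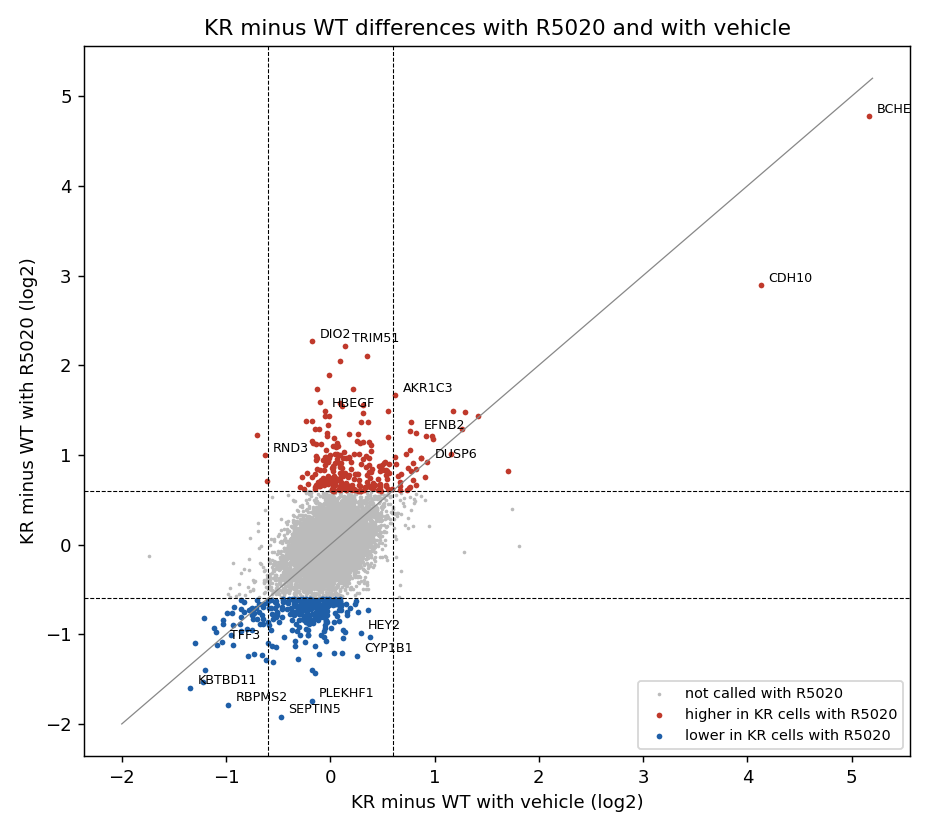
KR minus WT difference of each gene with vehicle (x axis, log2) and with R5020 (y axis, log2), from separate arrays. Dashed lines mark 0.6 and -0.6 and the grey line equal differences. BCHE, CDH10, DUSP6, TFF3 and KBTBD11 differ on both axes, while most called genes, such as DIO2, HBEGF and PLEKHF1, lie near 0 on the vehicle axis.

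Levels in the 6 groups show on which side a called gene left the others. Liganded KR cells had the highest mean of the 6 groups for 140 of the 241 higher genes (58.1%), and liganded WT cells the lowest for 121 (50.2%), with 28 genes in both classes. Among the 272 lower genes, liganded WT cells had the highest mean for 207 (76.1%) and liganded KR cells the lowest for 94 (34.6%), with 43 in both. Over all genes above background the corresponding shares were 14.9%, 23.4%, 20.7% and 18.3%. The call on these arrays raises such shares by itself, so they describe the genes and are no test.

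The study followed 15 genes by quantitative PCR, 14 of which were measured here. As the study chose this panel with these arrays in hand, its counts are not independent evidence. In KR cells with R5020, 7 were higher and 3 lower. Besides BCHE, MAP1A, MSX2 and RGS2, the higher genes were PDK4, SULF1 and ABCA3. PDK4, the kinase that shuts pyruvate out of the citric acid cycle, read 9.60 and 9.66 in KR cells and 8.44 and 8.23 in WT cells with R5020 (difference 1.29, SE 0.115, adjusted p = 2e-11), and it lay at 5.98 to 6.21 with vehicle in both lines. SULF1, an extracellular heparan sulfate sulfatase, differed by 0.91 (adjusted p = 8.09e-08), and by 0.52 with vehicle, short of the threshold. ABCA3, a lipid transporter, differed by 0.64 and by 0.77 with vehicle, and its call was lost without KR replicate 2 (0.51) or WT replicate 2 (0.58). The lower genes were DNALI1, P2RY6 and PARP4. PARP4 differed by -0.76 with R5020 (adjusted p = 1.52e-06) and by -0.73 with vehicle, and was called lower with both. P2RY6, a receptor for uridine diphosphate, read 7.53 and 7.71 in KR cells and 8.48 and 8.82 in WT cells (difference -1.03, adjusted p = 3.59e-08) and 0.38 higher in KR cells with vehicle, a value that did not pass the test (adjusted p = 0.11). A second, dim P2RY6 probe differed by 0.11 and was not called. Among the genes of the panel that were not called, BCL2L11, which encodes the death factor BIM, differed by -0.50 (adjusted p = 0.00176), ACOT6 by -0.23, MAT2A by 0.12 and RAC2 by 0.26. ACOT6 and MAT2A were raised by R5020 in both lines to close levels.

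Members of the pathways that a progestin receptor can act on were read from gene lists. For each list the number of measured members called is given, beside the 1.2% and 1.36% of all genes. Of 37 classical progestin-induced genes, 7 were higher and 4 lower in KR cells. ZBTB16, a transcriptional repressor, differed by 0.98, NDRG1, a stress and differentiation gene, by 1.04, and STAT5A, the transcription factor of prolactin signalling, by 0.90. Dimmer ZBTB16 probes gave 0.78, which was called, and -0.03, which was not, and the mean of all its probes was not called (0.58). The 4 lower genes were CEBPD (-0.72), GAS6 (-0.71), IL20RA (-0.68) and HSD17B2 (-0.62). NDRG1 read 12.60 and 12.59 in KR cells and 11.59 and 11.53 in WT cells with R5020, against 10.12 to 10.35 on the vehicle arrays of both lines. The rest of the list is not uniform, and the differences of its members ran between -0.72 and 2.27.

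Among 35 nuclear receptors PGR and ESRRG were higher. ESRRG, an orphan receptor related to the estrogen receptor, read 7.09 and 7.07 in KR cells and 6.14 and 5.99 in WT cells (difference 1.01, adjusted p = 3.73e-09), but its 2 other probes were not above background on 2 or more arrays. None of 21 coactivators and corepressors and none of 13 genes for SUMO conjugation and removal was called, with differences of -0.53 to 0.41 and -0.26 to 0.50. Of the 3 genes known earlier as sensitive to PR SUMOylation, HBEGF was higher as given above. STC1, a secreted glycoprotein, was 0.74 higher (adjusted p = 6.93e-06), and IRS1, an adaptor of insulin signalling, differed by 0.13 (adjusted p = 0.723). With vehicle STC1 differed by 0.54, short of the threshold, and IRS1 by 0.34 (adjusted p = 0.176). STC1 was lower with R5020 than with vehicle in both lines (-0.82 in KR and -1.02 in WT cells). PR-null cells read 8.28 to 8.44 for STC1, above every array of KR and WT cells. The study cites earlier work in which phosphorylated PR raised STC1 and IRS1 without progestin.

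**Figure D4:**
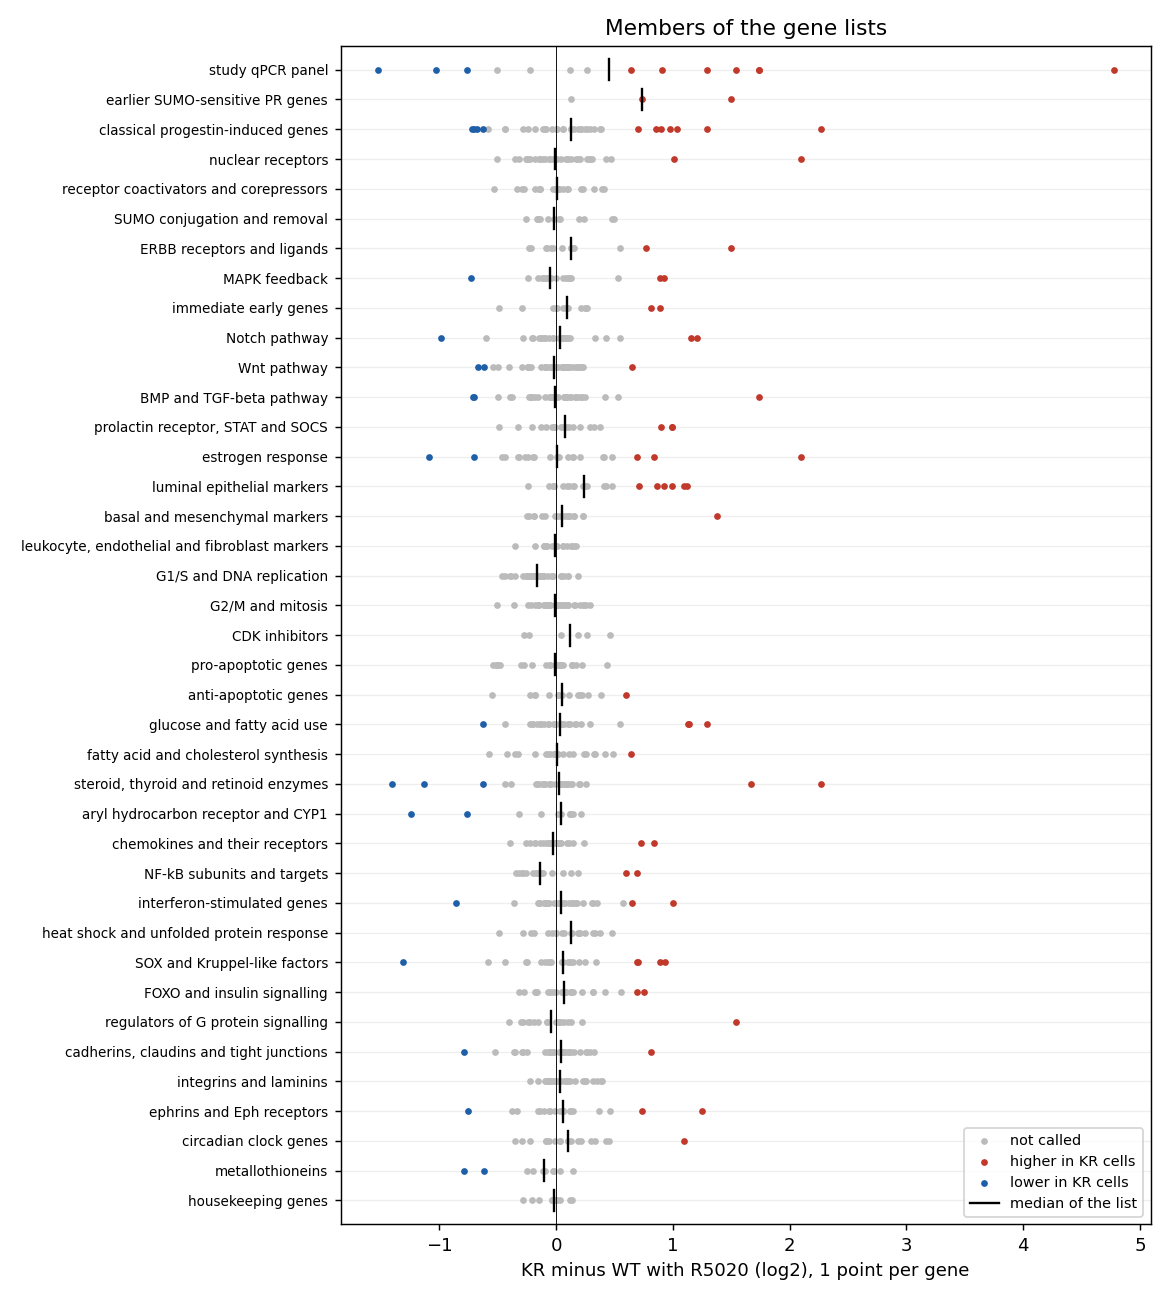
KR minus WT difference with R5020 (x axis, log2) of the measured members of the gene lists, 1 point per gene, with called genes coloured and the list median as a black bar. The luminal list has 6 members higher and none lower, while the cell cycle, coregulator and SUMO lists have no called member.

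Of 22 luminal epithelial markers 6 were higher and none lower in liganded KR cells, with a median difference of 0.24, beside no call and a median of 0.03 with vehicle. FOXA1, the pioneer factor that opens chromatin for steroid receptors, read 10.59 and 10.39 in KR cells and 9.45 and 9.35 in WT cells with R5020 (difference 1.09, SE 0.11, adjusted p = 5.73e-10), against 11.75 to 11.88 on the vehicle arrays of both lines. ELF3, an epithelial ETS factor, read 8.61 and 8.50 in KR cells and 7.66 and 7.21 in WT cells (difference 1.12, SE 0.119, adjusted p = 1.92e-09), against 9.82 to 10.06 with vehicle. ELF5, the ETS factor of alveolar differentiation, read 11.42 and 11.26 in KR cells and 10.45 and 10.25 in WT cells (difference 0.99, adjusted p = 1.15e-08), against 12.21 to 12.41 with vehicle. All 3 were therefore lower with ligand than with vehicle in both lines, and less so in KR cells. SOX2, a stem cell factor, behaved in the same way, with 7.97 and 8.08 in KR cells, 7.12 and 7.06 in WT cells, and 10.18 to 10.32 with vehicle. KRT7, a simple epithelial keratin, was 0.92 higher (adjusted p = 1.17e-06). Of 19 basal and mesenchymal markers only the surface glycoprotein THY1 was called, with 7.22 and 7.08 in KR cells and 5.63 and 5.91 in WT cells, where it was not above background, which makes it at least 2.14-fold higher (adjusted p = 1.57e-12).

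In the Notch pathway, which passes signals between neighbouring cells, 2 of 28 genes were higher and 1 was lower. The ligand DLL1 read 8.01 and 8.11 in KR cells and 6.90 and 6.92 in WT cells (difference 1.15, adjusted p = 1.21e-10), with 6.52 to 6.77 with vehicle. Of the repressors that Notch induces, HEY1 was 1.20 higher (adjusted p = 1.08e-10) and HEY2 lower by 0.98 (log2 difference -0.98, adjusted p = 1.48e-08). With vehicle HEY1 was 0.55 higher in KR cells, short of the threshold. HEY2 was level with its vehicle arrays in WT cells (7.97 and 8.01 with R5020, 7.83 and 7.98 with vehicle) and below them in KR cells (7.12 and 6.89 with R5020, 8.21 and 8.18 with vehicle). Of 20 genes of prolactin, STAT and SOCS signalling, STAT5A, ELF5 and SOCS2 were higher and none was lower. SOCS2, a feedback inhibitor of cytokine receptors, read 8.42 and 8.26 in KR cells and 7.56 and 7.14 in WT cells (difference 0.99, adjusted p = 4.72e-08). Dimmer second probes gave 0.57 for HEY1, 0.41 for SOCS2 and 0.47 for ELF5, none of them called.

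Growth factor signalling showed single members. Of 15 ERBB receptors and ligands HBEGF and the adaptor GRB7 (0.77, adjusted p = 1.14e-05) were higher, although a dimmer GRB7 probe gave 0.53 and was not called. Against vehicle, GRB7 was lower with R5020 in WT cells (-1.32), and by less in KR cells (-0.53, short of the threshold). Of 20 feedback genes of the MAPK cascade, SPRY1 was 0.89 higher, the phosphatase DUSP6 0.92 higher and DUSP14 lower by 0.73. DUSP6 differed just as much with vehicle (0.93), whereas SPRY1 read 8.75 to 8.98 on the vehicle arrays of both lines, 9.06 and 9.01 in KR cells and 8.16 and 8.13 in WT cells with R5020. Of 15 immediate early genes JUNB (0.81) and KLF6 (0.89) were higher. In the ephrin family, which guides cell contact, EFNB2 (1.25) and EFNA1 (0.74) were higher among 21 genes. EFNB2 was also higher in KR cells with vehicle (0.82, adjusted p = 2.14e-05). Both were lower with R5020 than with vehicle in both lines. The log2 differences were -2.03 in KR and -2.46 in WT cells for EFNB2, and -0.81 and -1.46 for EFNA1. The receptor EPHB4 was lower in KR cells (-0.75), a call that was lost without KR replicate 1 (-0.55).

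Genes of metabolism differed in both directions. Of 29 genes of glucose and fatty acid use, PDK4, TXNIP and SLC2A3 were higher. PFKFB3, which drives glycolysis, was lower (-0.62), a call lost without KR replicate 2 (-0.58) or WT replicate 1 (-0.53). A dimmer second PFKFB3 probe differed by -0.21 and was not called (adjusted p = 0.389). The mean of all its probes was not called either (-0.42). TXNIP, which restrains glucose uptake, read 10.81 and 10.86 in KR cells and 9.88 and 9.52 in WT cells (difference 1.14, adjusted p = 4.97e-10). With vehicle TXNIP read 11.27 and 11.30 in KR cells and 10.92 and 10.91 in WT cells. Against vehicle it was thus lower with R5020 in WT cells (-1.21), and by less in KR cells (-0.445, short of the threshold). SLC2A3, the glucose transporter GLUT3, read 6.93 and 6.83 in KR cells and 5.69 and 5.82 in WT cells, where it was not above background. It was thus at least 1.77-fold higher in KR cells (adjusted p = 1.09e-09). Of 34 enzymes of steroid, thyroid and retinoid metabolism, DIO2 and AKR1C3 were higher, and 3 enzymes were lower, ALDH1A3 and CYP26A1 among them. CYP26A1, which breaks down retinoic acid, read 6.14 and 6.00 in KR cells and 7.30 and 7.10 in WT cells (difference -1.13, adjusted p = 1.94e-09), while its 3 other probes were not above background on 2 or more arrays. In the estrogen response list, 3 of 24 genes were higher and 2 lower. PGR, which these lines express from the vector, was among the higher genes of the list. TFF3, a secreted trefoil peptide, was among the lower ones, with -1.09 with R5020 and -1.03 with vehicle. The metallothioneins MT2A (-0.79) and MT1F (-0.62), which bind zinc and copper, were lower among 10 measured.

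The lists for G1/S and DNA replication, for G2/M and mitosis and for pro-apoptotic genes had no called member. Differences ran between -0.46 and 0.18 over 36 genes of G1/S and DNA replication (median -0.16), between -0.50 and 0.29 over 34 genes of G2/M and mitosis (median -0.01), and between -0.54 and 0.44 over 23 pro-apoptotic genes (median -0.01). Of 15 anti-apoptotic genes TNFAIP3, which restrains NF-kB signalling, was higher (0.60, adjusted p = 0.000294), a call lost without KR replicate 1 (0.52), without WT replicate 2 (0.59) and with normexp background correction (0.55). No CDK inhibitor, heat shock gene, integrin or laminin was called either. Of 31 interferon-stimulated genes 2 were higher and 1 lower. IRF1, an interferon-induced transcription factor, was lower (-0.86, adjusted p = 3.91e-07). IFI27 and IFI6 were higher (1.00 and 0.65), yet each rested on KR replicate 2. IFI27 read 6.11 and 7.32 in KR cells, and without that array the differences were 0.40 for IFI27 and 0.34 for IFI6, neither of which was called.

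Promoter sequence was read for the 30 named genes with the greatest differences and the quantitative PCR panel, 37 genes searched in all, of which 31 had an entry in the RefSeq table used (build GRCh38.p14). In the 250 bases before each annotated start, 3 patterns of the receptor's palindromic element were searched on both strands. They were the core ACANNNTGT, a longer form with G before and C after the core, each 1 base away, and the half-site AGAACA, which can overlap both. Matches fell in 5 genes. The 4 genes called are printed with 1 match each, in capitals, as 60 bases 5′ to 3′ on the gene's strand.
RAB27B, core: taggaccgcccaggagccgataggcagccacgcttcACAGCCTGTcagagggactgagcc
RBPMS2, core: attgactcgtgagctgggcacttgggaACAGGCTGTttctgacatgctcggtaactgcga
SPINK13, half-site: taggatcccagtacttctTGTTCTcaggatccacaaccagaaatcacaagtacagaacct
PDK4, half-site: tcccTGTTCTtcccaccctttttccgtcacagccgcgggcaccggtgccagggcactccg
The RAB27B segment is at chr18:54717797-54717856 on the plus strand, with the match 24 bases before the start, and that of RBPMS2 is at chr15:64761405-64761464 on the minus strand, 220 bases before it. The SPINK13 segment is at chr5:148268544-148268603 on the plus strand and that of PDK4 at chr7:95596707-95596766 on the minus strand. Further matches, not printed, were a half-site 236 bases before another annotated start of RAB27B (chr18:54828227-54828286) and a half-site 123 bases before the start of RBPMS2 (chr15:64761308-64761367). The fifth gene with a match, ACOT6, was not called. RAB27B and SPINK13 were higher and RBPMS2 lower in KR cells, so the same patterns stood before genes of either direction.

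Over the promoters of all measured genes, 3.47% held the core, 0.28% the longer form and 9.79% the half-site. For genes higher in KR cells the shares of 273 promoters were 5.86% for the core, 1.1% for the longer form and 6.23% for the half-site. For genes lower in KR cells they were 3.04%, 0.676% and 5.41% of 296 promoters in the same order. These are counts of letters in a short window, in which distant enhancers are not included, and a match is a description of the sequence and not a site.

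Neighbouring genes shared differences on some chromosomes. Genes with a mean over 7 (log2 intensity; 8214 genes) were put in chromosome order by the RefSeq annotation. On chromosome 15 the median difference of 263 genes was -0.21 with R5020, and it lay between -0.24 and -0.20 for the 4 pairs of a KR and a WT array. With vehicle, on separate arrays, it was -0.18. On this chromosome 25 genes (9.51%) were lower and 3 higher, beside 2.31% and 2.12% of all genes of this set. Of the 15 lowest genes 4 lie there, namely RBPMS2, ALDH1A3, KLF13 and CCDC9B. Relative to PR-null cells with R5020, the chromosome's median was 0.14 in KR cells and 0.39 in WT cells, so both lines stood above PR-null cells and WT cells further so.

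The lowest values on chromosome 15 were gathered in its distal part. In runs of 25 neighbouring genes, the 5 runs between ANXA2 and HDDC3 had medians of -0.38 to -0.25 with R5020 and -0.32 to -0.17 with vehicle. The runs before them, between GOLGA6L6 and BNIP2, had medians of -0.15 to -0.06 with R5020. Only 10 of 318 runs over the genome lay below -0.2, and the other 5 were on chromosome 8 and at the start of chromosome 9. The run at the start of chromosome 9 read -0.40 with R5020 and -0.46 with vehicle. On chromosome 14 the run between CCDC88C and VRK1 read 0.31 and 0.35. Medians of the runs with R5020 and with vehicle correlated at r = 0.729, over points that share the clones and the normalization. The runs were picked after their values were seen, and copy number was not measured on these arrays. The part of such regional differences in the calls was not tested.

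**Figure D5:**
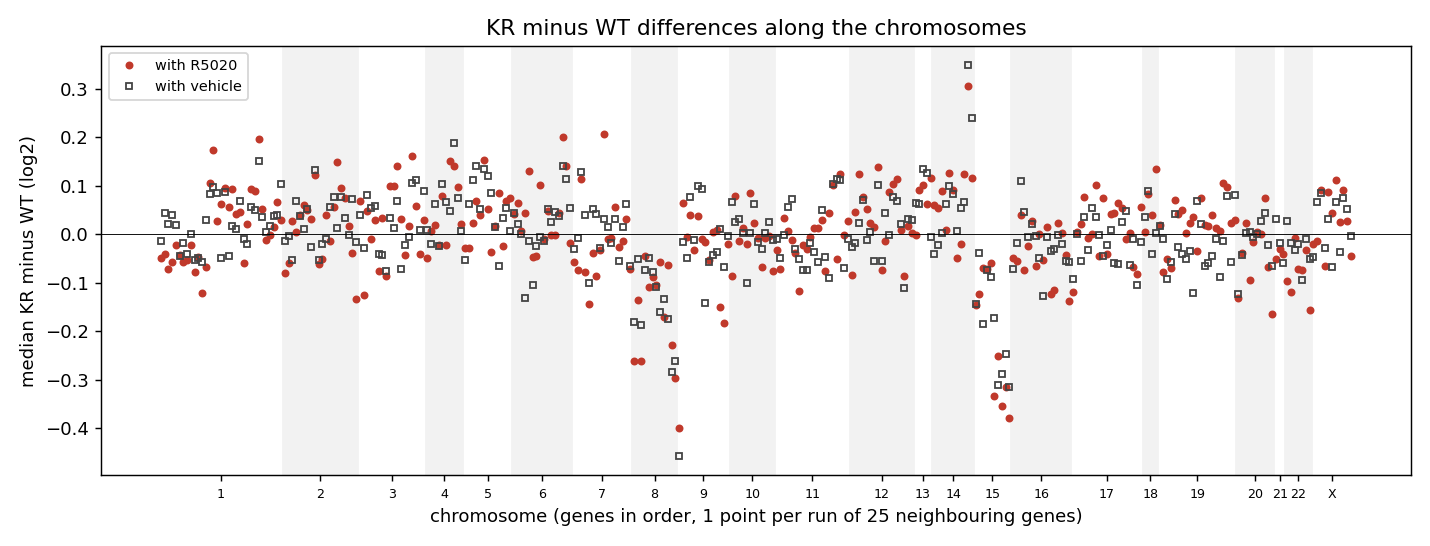
Median KR minus WT difference (y axis, log2) of each run of 25 neighbouring genes in chromosome order (x axis), with R5020 as filled points and with vehicle as open squares. The distal runs of chromosome 15, parts of chromosome 8 and the first run of chromosome 9 lie below the rest with both treatments, and the run of chromosome 14 between CCDC88C and VRK1 lies above them.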

How the data were processed

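The authors deposited log2 intensities. They had taken the log2 of raw Illumina HT-12 bead array signals and quantile normalized them in lumi, whose version is not given in the sources used here. RNA was amplified to biotin-labelled cRNA and hybridised to 12 arrays, 2 in each of 6 groups. A second table of non-normalized signals names its 24 columns of intensities and detection p-values by codes that no label explains, and it was not used. Of 47231 probes, 30113 carried 1 gene symbol, and for 30074 of these the gene was found in RefSeq. The 8 with several symbols and 17110 with none were left out of the gene tables. Where a gene had several probes, the one with the highest mean stood for it.

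All 12 arrays entered 1 model with 6 group means per probe (limma 3.58.1, R 4.3.3). Contrasts were moderated by empirical Bayes, and p-values were adjusted by Benjamini-Hochberg over all probes. Every adjusted p in the text is from limma. Called genes passed the study's thresholds, a log2 difference of 0.6 and an adjusted p of 0.01. Where the dimmer line was not above background on either array, the fold is given as at least the ratio of the brighter mean to the limit. The model was tested on simulated data. Named genes were the 15 highest and 15 lowest called genes that were above background and did not overlap, with provisional symbols passed over, PGR, the quantitative PCR panel, the genes known earlier, and, from each list, at most 4 called members by size. Members and lists were chosen with earlier results of these data known. The members of 1 list are not reported as a group here. The number of arrays limits the precision. Promoters of named genes on chromosome 8 were not searched.

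Alternatives were a fit on the 4 R5020 arrays, the replicate number as a block, each array left out, normexp correction, cyclic loess, a background filter, the mean of all probes, a trended robust prior and a log2 threshold of 1. Deviations of arrays with the same replicate number correlated at -0.0468 to 0.0814 over 15 pairs of groups, so the numbers were not taken as pairs.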

Additional observations from a re-analysis of the deposited data

Results flagged for a closer look

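For 49 of the 95 named genes the KR minus WT difference itself differed between R5020 and vehicle, by the contrast of the 2 differences in the same limma fit (log2 difference over 0.6, adjusted p under 0.01), in 34 upward and in 15 downward. As the named genes were chosen partly on the R5020 arrays, the counts describe these genes only. Values are the difference with R5020 less the difference with vehicle, on the log2 scale. DIO2 had 2.44, TRIM51 2.08, SPINK13 1.95, AFAP1L2 1.90, MAP1A 1.86 and PGR 1.75. Signalling and cell surface genes followed, with 1.69 for PHLDA1, 1.62 for RND3, 1.61 for THY1, 1.55 for HBEGF, 1.49 for UTS2B, 1.44 for RGS2, 1.33 for DLL1, 1.13 for SOCS2, 0.94 for CXCL12, 0.79 for SPRY1 and 0.79 for GRB7. Among transcription factors MSX2 had 1.51, ELF3 1.26, BHLHE40 1.07, FOXA1 1.04, ZBTB16 1.02, ESRRG 0.97, SOX2 0.96, ELF5 0.90 and KLF9 0.77. PDK4 had 1.40, SLC2A3 1.21, AKR1C3 1.04, TXNIP 0.77, RAB27B 1.24, RHOB 1.07, DDIT4 1.02 and NDRG1 0.91.

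On the downward side PLEKHF1 had -1.57, CYP1B1 -1.49, SEPTIN5 -1.45, P2RY6 -1.41, SRGN -1.29, HEY2 -1.28 and RASD2 -1.23. CYP26A1 had -0.99, EPB41L3 -0.97, TGIF1 -0.89, RBPMS2 -0.81, KLF13 -0.76, MT2A -0.75 and MT1F -0.70. CDH10 had -1.23, since its excess in KR cells was smaller with R5020 than with vehicle.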

How the results depend on the processing

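The counts of 241 higher and 272 lower genes, the 88 called in the same direction with vehicle and the 171 called with vehicle stayed within 1.5 times of these values under every alternative run for them other than the higher threshold. The count with vehicle was not recomputed with an array left out or in the fit on the 4 R5020 arrays. At a log2 difference over 1 they were 66, 39, 13 and 23, which follows from the threshold. With each R5020 array left out in turn, higher genes numbered 239 to 277, lower genes 278 to 284 and those shared with vehicle 79 to 92, and the PGR difference was 2.00 to 2.20. With the replicate block the counts were 241, 272, 88 and 171 and PGR differed by 2.10, so the block changed no count. Averaging all probes of a gene gave the lowest counts apart from the higher threshold, 189 and 195. The overlap with vehicle could not be computed in the fit on the 4 R5020 arrays. Of the 90 named genes that were called, 66 were called under every alternative other than the higher threshold and none changed direction. The mean of all probes ended 12 calls, among them P2RY6, AHNAK2, CYP26A1, ESRRG and TGIF1, whose other probes were dimmer. IFI27 and IFI6 each lost their calls under 4 alternatives, among them the fit without KR replicate 2. The median of chromosome 15 was -0.22 to -0.19. With 2 arrays per group, differences near 0.6 are the least certain, and genes under the background limit cannot be called lower.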

Other observations

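Members of X-linked cancer-testis families, genes otherwise active mainly in the testis, differed between the lines with and without ligand. Of 4 VCX genes 3 were higher and 1 was lower in KR cells with R5020, and the same was true with vehicle. VCX3A read 11.05 and 11.02 in KR cells and 9.53 and 9.58 in WT cells with R5020 (difference 1.48, adjusted p = 1.25e-13), and 11.11 and 11.08 in KR cells and 9.90 and 9.70 in WT cells with vehicle (difference 1.29). PR-null cells lay at 10.81 to 10.99, close to KR cells. VCX2 went the other way, with -0.84 with R5020 and -1.03 with vehicle. Here KR cells stood apart, at 11.64 to 11.72 over both treatments, beside 12.48 to 12.75 in WT cells and 12.23 to 12.57 in PR-null cells.

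Of 12 GAGE genes 3 were higher with R5020 and 3 with vehicle, beside the shares of all genes given above. The differences of the family with R5020 ran between 0.09 and 1.21 (median 0.33). GAGE12D had the greatest, with 9.12 and 9.36 in KR cells and 8.21 and 7.85 in WT cells with R5020 (adjusted p = 1.05e-09). No member of the MAGEA, SSX, XAGE, PAGE or CT45 genes measured was called, with differences of -0.38 to 0.20. Copies within these families are nearly identical, so a probe may read several of them. The families were picked after their values were seen.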
